A study of Mus musculus with 6 samples.

Results

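The genes described here are NRF2 (gene Nfe2l2), its repressor KEAP1 (Keap1) and 8 redox enzymes, Nqo1, Hmox1, Gclc, Gclm, Txnrd1, Srxn1, Gsr and G6pdx. They were chosen by name: a row of the count and FPKM tables belonged to the set when its gene name held one of these symbols. All 10 were found among 52006 named loci, and all 10 were among the 16787 loci with enough counts to be tested. RNA was sequenced from mouse embryonic fibroblasts, connective-tissue cells grown out of embryos, in 6 libraries: 3 from Fbxw7 KO cells and 3 from WT cells. Both genotypes grew in DMEM with 15% FBS and 1% NEAA. How Fbxw7 was deleted, and whether replicates were separate embryos, cultures or preparations, is not stated in the labels, so the p-values cover the spread between these libraries, which may be technical.

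NRF2 is a bZIP transcription factor that switches on genes for antioxidant and detoxifying enzymes. In unstressed cells KEAP1 holds NRF2 and hands it to a CUL3 ubiquitin ligase for degradation; oxidants and electrophiles modify KEAP1, and NRF2 then builds up, pairs with a small MAF protein and binds antioxidant response elements. The control is thus largely on the NRF2 protein, which mRNA levels do not show. FBXW7 is the substrate-binding part of a different ubiquitin ligase, of the SCF type, and one of its described substrates is the NRF2 relative NFE2L1.

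The 3 genes whose level passed the test, Nqo1, Srxn1 and Gclm, are shown here by the 250 bases before their RefSeq start (build GRCm38.p6), since an antioxidant response element close to a start would lie there. Each sequence is written 5′ to 3′ on the gene's strand, and capitals mark a match to TGACNNNGC or TGAGNNNGC on either strand. The Nqo1 window is chr8:107403206-107403455 (minus strand), the Srxn1 window chr2:152105274-152105523 (plus strand) and the Gclm window chr3:122245307-122245556 (plus strand).
Nqo1: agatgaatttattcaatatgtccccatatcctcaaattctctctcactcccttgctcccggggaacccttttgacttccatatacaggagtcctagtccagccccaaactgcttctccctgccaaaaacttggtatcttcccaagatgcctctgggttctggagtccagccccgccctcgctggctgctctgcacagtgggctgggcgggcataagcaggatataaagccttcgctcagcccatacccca
Srxn1: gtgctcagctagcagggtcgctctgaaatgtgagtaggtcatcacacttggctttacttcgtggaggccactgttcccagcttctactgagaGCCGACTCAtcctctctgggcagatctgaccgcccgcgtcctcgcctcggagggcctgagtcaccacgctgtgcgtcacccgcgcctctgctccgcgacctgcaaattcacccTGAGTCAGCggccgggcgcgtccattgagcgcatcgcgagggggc
Gclm: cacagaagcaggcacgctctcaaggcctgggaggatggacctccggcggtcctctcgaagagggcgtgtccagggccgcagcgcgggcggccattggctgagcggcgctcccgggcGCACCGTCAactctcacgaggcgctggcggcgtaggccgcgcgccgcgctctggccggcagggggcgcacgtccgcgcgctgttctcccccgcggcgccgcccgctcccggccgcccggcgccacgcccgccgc
The Nqo1 window held neither form, and bases further upstream were not searched for any gene. The Srxn1 window held TGAGTCAGC, from 45 to 37 bases before the start, and TGAGTCGGC on the opposite strand, from 158 to 150 bases before it. The match nearer the start overlaps TGANTCA, a form that takes in the AP-1 site, of which this window held 2 positions. No other window of these genes held TGANTCA. The Gclm window held TGACGGTGC on the opposite strand, from 134 to 126 bases before the start. RefSeq windows were matched for 7 of the 10 genes (not for Hmox1, Gclc and Gsr): TGACNNNGC was also found for Nfe2l2 (TGACTCCGC), G6pdx (TGACTGAGC) and 1 of the 3 starts of Txnrd1 (TGACAAAGC), and neither form was found for Keap1. Among all 32851 windows of this length, 10.2% held TGACNNNGC, 14.4% held TGAGNNNGC (a form added after the data were seen) and 6.75% held TGANTCA (also not planned). These are letter matches, not measured binding.

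As deposited, after a scaling of each library by 1 factor, the libraries held 55720129 to 60402238 estimated fragments in KO cells and 62551369 to 64198455 in WT cells. Before that scaling the ranges overlapped, at 57728459 to 70625678 in KO and 51154147 to 66070271 in WT libraries. Fbxw7 itself read 24.1 to 27.6 CPM (counts scaled to a common library size with TMM factors) in the KO libraries and 28.4 to 30.1 CPM in the WT libraries. Its log2 fold change of -0.16 ± 0.10 (SE) did not pass the test (edgeR adjusted p = 0.332), and as the deleted part of the gene was not given, this does not check the labels. In both genotypes replicates 1 and 2 were close and replicate 3 stood apart: the median chi-square between libraries was 6.56 (KO) and 7.42 (WT) times sampling noise for replicates 1 and 2, against 26.7 to 42.7 times when replicate 3 was one of the pair. Xist, the RNA of an inactive X chromosome, read 798 to 1046 CPM in KO and 0.213 to 2.17 CPM in WT libraries, and the Y-linked Ddx3y 24.0 to 35.9 CPM in KO and 81.8 to 109 CPM in WT. Every KO library thus held both Xist and Ddx3y RNA. The Xist and Ddx3y difference goes with genotype in every library, so its part in any value below cannot be told apart from that of Fbxw7. Fibroblast markers were abundant in every library, with a summed level of 31943 to 38664 CPM in KO and 29966 to 40276 CPM in WT; of 10, Dcn and Lum were higher and Vim lower in KO. Endothelial markers summed to 0.614 to 1.42 CPM in KO and 6.46 to 9.27 CPM in WT, with both tested members of 5, Kdr and Tek, lower in KO. Macrophage and blood cell markers summed to 10.8 to 13.5 CPM in KO and 18.5 to 21.2 CPM in WT, mostly Lyz2. Of 6 markers 3 were tested: Lyz2 and Cd68 were lower in KO, and Csf1r was not called (log2 fold change 0.15, edgeR adjusted p = 0.838). Adgre1 was at 0 in every library. Epithelial and skeletal muscle markers summed to under 1 CPM in every library, and neural markers to 7.10 to 7.39 CPM in KO and 5.87 to 7.38 CPM in WT. The part of these cells in the results below was not tested, and in bulk RNA fewer cells of a type and less RNA per cell cannot be told apart.

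Of the 10 genes, Gclm rose and Nqo1 and Srxn1 fell in KO cells, and the other 7 did not pass an adjusted p of 0.05 (edgeR quasi-likelihood test, Benjamini-Hochberg over all loci tested). Across all loci 16.1% passed, 8.03% higher and 8.08% lower. The median log2 fold change of the 10 genes was -0.21, against 0.007 over all loci tested, and 7 of the 10 had a value below 0. With scaling by library size only, 65.7% of all calls were higher in KO, against 49.8% with TMM factors. All KO libraries lay above all WT libraries for 1 of the 10, Gclm, as for 19.2% of loci, and below them for 5, as for 18.4% of loci; 37.7% of loci did not overlap in either direction. Without replicate 3 of both genotypes, an alternative added once the values were known, 7 of the 10 passed, 3 higher and 4 lower, where 41.3% of loci passed, 20.7% higher and 20.6% lower. That fit held only replicates 1 and 2, which were close to each other, so its p-values here and below cover the spread between those alone. The number of the 10 that passed was 1 without KO replicate 1, where 6.79% of all loci passed, without WT replicate 1 (7.56% of loci) and without WT replicate 2 (7.39%). It was 2 without KO replicate 2 (8.5% of loci), 4 without KO replicate 3 (19.1%) and 3 without WT replicate 3 (18.5%).

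**Figure D1:**
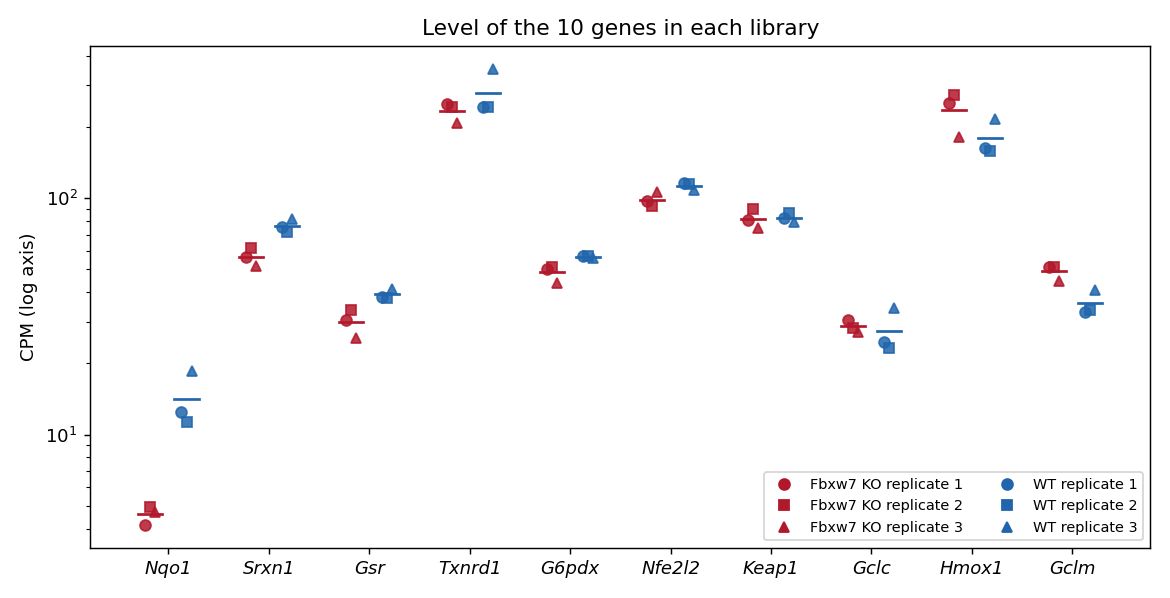
CPM of each gene (log axis) in each of the 3 Fbxw7 KO libraries (red, left) and 3 WT libraries (blue, right), with a bar at the group mean and the genes ordered by log2 fold change. For Nqo1 all KO libraries sit between 4.15 and 4.96 CPM and all WT libraries between 11.3 and 18.6 CPM; triangles mark replicate 3, the highest WT library for 7 of the 10 genes.

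The regulators come first. Nfe2l2 (chromosome 2, 75675513 to 75704641, minus strand; this and the following positions are GENCODE M21 genes on mm10) read 97.1, 92.9 and 106 CPM in KO libraries and 115, 115 and 108 CPM in WT libraries. All KO libraries lay below all WT libraries, by a small margin between KO replicate 3 and WT replicate 3. The log2 fold change was -0.19 ± 0.09 (SE; 95% interval -0.40 to 0.01; edgeR adjusted p = 0.181), and -0.28 ± 0.08 without replicate 3 of both genotypes (adjusted p = 0.00946).

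Keap1 (chromosome 9, 21229730 to 21239361, minus strand) read 81.2, 89.7 and 74.9 CPM in KO libraries and 82.1, 86.9 and 79.2 CPM in WT libraries. The genotypes overlapped. KO over WT, Keap1 differed by -0.014 ± 0.097 (SE) on the log2 scale, with a 95% interval of -0.24 to 0.21 and an edgeR adjusted p of 0.942. The sign turned with scaling by library size only (0.082), without replicate 3 of both genotypes (0.015), without KO replicate 3 (0.042) and without WT replicate 2 (0.021). The antisense gene Gm16754 overlaps Keap1; whether the counting used strand is not stated, so their reads may not be told apart.

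Nqo1 (chromosome 8, 107388225 to 107403206, minus strand), a quinone reductase that is widely used as a readout of NRF2, had the largest change of the 10. It read 4.15, 4.96 and 4.71 CPM in KO libraries and 12.5, 11.3 and 18.6 CPM in WT libraries. Every KO library was far below the lowest WT library, and among the WT libraries replicate 3 was the highest by a wide margin. Nqo1 averaged 4.61 ± 0.415 CPM in KO and 14.1 ± 3.95 CPM in WT cells (SD, n = 3 each). It fell by 1.62 on the log2 scale (SE 0.21), to 32.6% of WT, with an edgeR adjusted p of 0.00279; 4.88% of loci tested had a larger absolute log2 fold change. Without replicate 3 of both genotypes the log2 fold change was -1.38 ± 0.13, and it passed with each library left out in turn (-1.76 to -1.37).

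Srxn1 (chromosome 2, 152105516 to 152111376, plus strand) encodes sulfiredoxin, which restores overoxidised peroxiredoxins. It read 56.2, 61.4 and 51.4 CPM in KO libraries and 75.8, 71.6 and 81.2 CPM in WT libraries, with no overlap. It averaged 56.3 ± 4.97 CPM in KO and 76.2 ± 4.80 CPM in WT cells (SD, n = 3 each). It fell by 0.44 on the log2 scale (SE 0.10), with an edgeR adjusted p of 0.0249. The call was lost without KO replicate 1 (edgeR adjusted p = 0.106), without WT replicate 1 (0.0841) and without WT replicate 2 (0.0569), at values of -0.44, -0.44 and -0.48.

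Glutathione is made from cysteine in a first step by glutamate-cysteine ligase, of which Gclc encodes the catalytic and Gclm the modifier subunit. Gclm (chromosome 3, 122245557 to 122270732, plus strand) read 51.0, 51.2 and 44.7 CPM in KO libraries and 33.1, 33.5 and 41.0 CPM in WT libraries. All KO libraries lay above all WT libraries, with replicate 3 of the genotypes closest to each other. It averaged 49.0 ± 3.70 CPM in KO and 35.9 ± 4.44 CPM in WT cells (SD, n = 3 each) and rose by 0.45 ± 0.12 (SE) on the log2 scale, with an edgeR adjusted p of 0.0384. The call was lost without KO replicate 1 (edgeR adjusted p = 0.155), KO replicate 2 (0.128), WT replicate 1 (0.146) or WT replicate 2 (0.139), at values of 0.39 to 0.41, and without replicate 3 of both genotypes the value was 0.62 ± 0.08. The Gclm locus also held the processed pseudogene Gm6061 on the same strand, whose reads cannot be told apart from those of Gclm.

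Gclc (chromosome 9, 77754535 to 77794485, plus strand) read 30.5, 28.3 and 27.3 CPM in KO libraries and 24.5, 23.2 and 34.5 CPM in WT libraries. WT replicate 3 was above every KO library and the other WT libraries were below them. Gclc differed by 0.07 ± 0.16 (SE) on the log2 scale, KO over WT, and was not called (95% interval -0.30 to 0.44; edgeR adjusted p = 0.814). Without replicate 3 of both genotypes it was 0.30 ± 0.10 and passed (adjusted p = 0.0203); without WT replicate 1 or WT replicate 2 it turned to -0.0095 and -0.042. The ratio of Gclm to Gclc, taken on FPKM (fragments per kilobase of transcript, scaled to library size), was 3.91, 4.41 and 4.21 in KO libraries and 3.25, 3.10 and 2.90 in WT libraries. The ratio, which was not among the planned results, averaged 4.18 ± 0.251 in KO and 3.08 ± 0.177 in WT cells (SD, n = 3 each). It did not overlap between genotypes, including replicate 3. Gclm alone did not overlap either, as for 37.7% of loci in either direction, and the share of other gene pairs was not counted. The Gclm FPKM may include reads of Gm6061. The two-sided exact permutation p of the ratio was 0.1, the smallest that 3 against 3 libraries allow.

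Hmox1 (chromosome 8, 75093621 to 75100589, plus strand) encodes heme oxygenase-1, which breaks heme down to biliverdin, iron and carbon monoxide, and is also held down by BACH1. It read 252, 274 and 181 CPM in KO libraries and 162, 159 and 215 CPM in WT libraries. KO replicates 1 and 2 were above every WT library, and KO replicate 3 lay below WT replicate 3. With an edgeR adjusted p of 0.18 Hmox1 was not called, at a log2 fold change of 0.40 ± 0.18 (SE; 95% interval -0.02 to 0.82). It passed without KO replicate 3, at 0.55 ± 0.15 (edgeR adjusted p = 0.0464). Without replicate 3 of both genotypes it passed at 0.71 ± 0.08 (edgeR adjusted p = 1.58e-06), a p-value that covers only the spread between replicates 1 and 2. Replicate 3 alone differed by -0.25 (KO minus WT, log2 CPM).

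**Figure D2:**
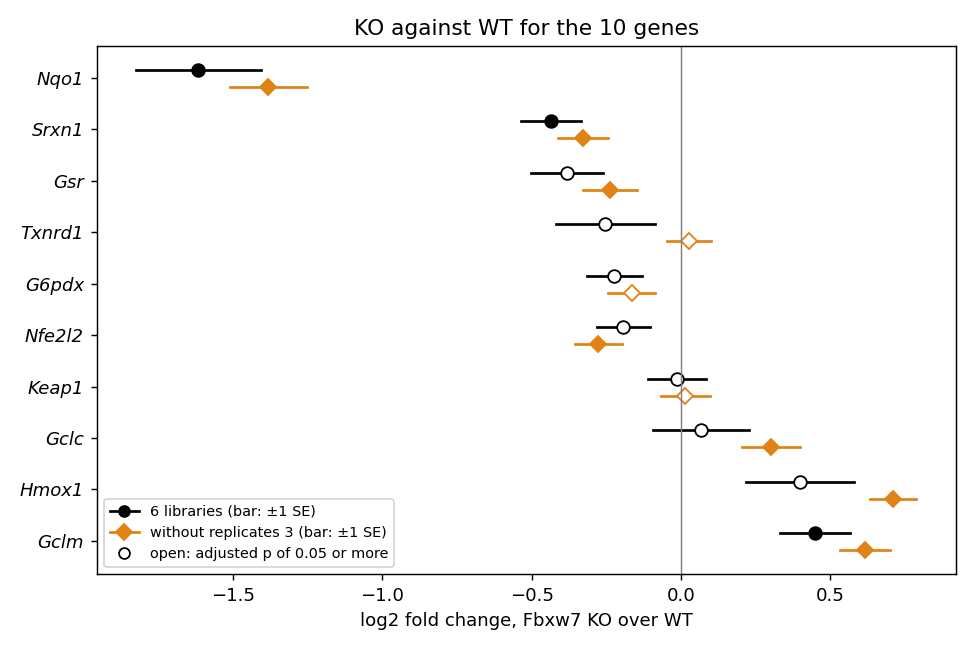
Log2 fold change of each gene, Fbxw7 KO over WT, from all 6 libraries (black circles) and without replicate 3 of both genotypes (orange diamonds); bars are 1 SE either way, and filled symbols passed an adjusted p of 0.05. Nqo1 passed in both fits (-1.62 and -1.38), Txnrd1 in neither (-0.25 and 0.028), and Hmox1 (0.40 and 0.71) and Gclc (0.07 and 0.30) only without replicate 3, as did Gsr and Nfe2l2.

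Txnrd1, Gsr and G6pdx supply reducing power. Txnrd1 (chromosome 10, 82833951 to 82897712, plus strand), the cytosolic thioredoxin reductase, read 250.0, 244 and 208 CPM in KO libraries and 242, 242 and 353 CPM in WT libraries. WT replicate 3 stood far above the other 5 libraries, which lay close together. The log2 fold change was -0.25 ± 0.17 (SE; 95% interval -0.64 to 0.13; edgeR adjusted p = 0.344), and 0.028 ± 0.074 without replicate 3 of both genotypes. The coding gene Eid3 lies within Txnrd1 on the same strand, as a locus of its own in the tables.

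Gsr (chromosome 8, 33652523 to 33698163, plus strand), the glutathione reductase, read 30.7, 33.8 and 25.7 CPM in KO libraries and 38.2, 37.8 and 41.4 CPM in WT libraries. All KO libraries lay below all WT libraries. KO over WT, Gsr differed by -0.38 ± 0.12 (SE) on the log2 scale, with a 95% interval of -0.66 to -0.10, and missed the threshold after adjustment (edgeR adjusted p = 0.07); it passed in DESeq2 (-0.39; adjusted p = 0.0376) and without replicate 3 of both genotypes (-0.24 ± 0.09; edgeR adjusted p = 0.0426).

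G6pdx (chromosome X, 74409483 to 74429194, minus strand), glucose-6-phosphate dehydrogenase, opens the pentose phosphate pathway and is a main source of cytosolic NADPH. It read 50.3, 51.2 and 44.0 CPM in KO libraries and 56.9, 56.8 and 56.0 CPM in WT libraries. The groups did not overlap, and the WT libraries were within 1 CPM of each other. G6pdx missed the threshold (edgeR adjusted p = 0.144), at -0.22 ± 0.09 (SE) on the log2 scale and a 95% interval of -0.44 to -0.0093. The gene is X-linked, Xist differed between the genotypes as given above, and the part of that difference in this value cannot be told apart from that of Fbxw7. The coding gene Ikbkg overlaps G6pdx on the opposite strand, so their reads too may not be told apart. The autosomal retrogene G6pd2, a near copy that may share reads and was chosen after the members were fixed, read 1.38 to 2.13 CPM in KO and 1.79 to 2.08 CPM in WT libraries.

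The third library of each genotype moved several of these genes in opposite directions. WT replicate 3 was above both other WT libraries for 7 of the 10 genes, a position it held for 38.1% of all loci tested. KO replicate 3 was below both other KO libraries for 8 of the 10, a position it held for 42.6% of all loci. On the log2 CPM scale, WT replicate 3 exceeded the mean of WT replicates 1 and 2 by 0.65 for Nqo1, 0.54 for Txnrd1, 0.53 for Gclc, 0.42 for Hmox1 and 0.30 for Gclm. KO replicate 3 differed from the mean of KO replicates 1 and 2 by -0.54 for Hmox1, -0.32 for Gsr and -0.25 for Txnrd1. The labels give no batch or date for these libraries, so what sets replicate 3 apart was not tested.

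**Figure D3:**
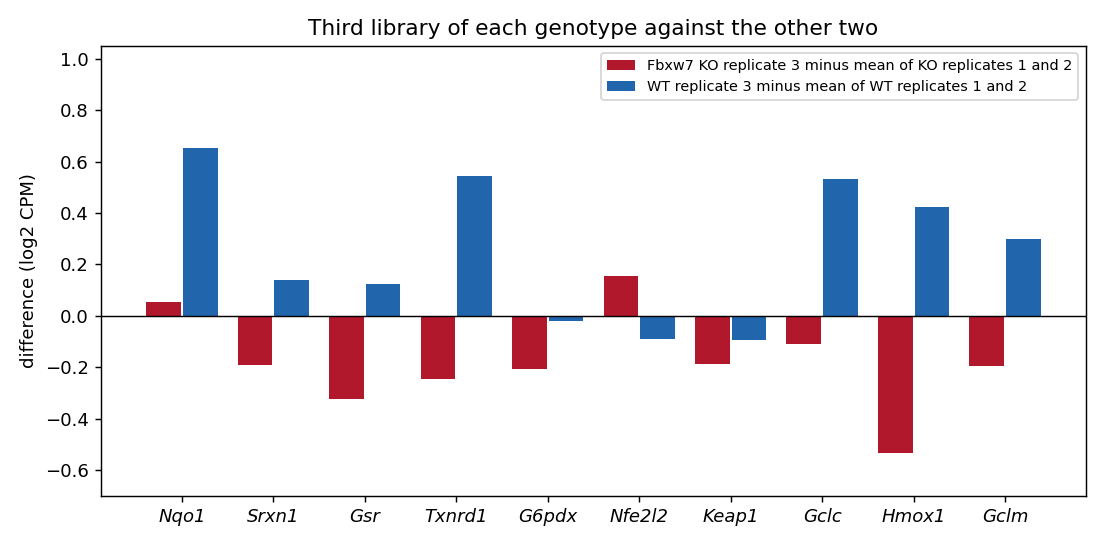
Replicate 3 minus the mean of replicates 1 and 2 of the same genotype, in log2 CPM, for each gene in Fbxw7 KO (red, left bar) and WT (blue, right bar) cells. WT replicate 3 is high for Nqo1 (0.65), Txnrd1 (0.54) and Gclc (0.53), and KO replicate 3 is low for Hmox1 (-0.54).

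Levels between genes were compared on FPKM, which accounts for transcript length. In KO cells the order was Hmox1 (159 ± 34.8 FPKM; SD, n = 3 here and for the values that follow), Txnrd1 (77.0 ± 8.84), Nfe2l2 (39.5 ± 2.24), Gclm (33.5 ± 1.83), Keap1 (24.7 ± 2.80), Srxn1 (21.9 ± 1.64), G6pdx (21.1 ± 2.43), Gsr (13.0 ± 2.01), Gclc (8.03 ± 0.469) and Nqo1 (3.14 ± 0.309). In KO cells the ranges of Keap1, Srxn1 and G6pdx overlapped, and the other neighbours in the order were apart in all libraries. In WT cells the order was Hmox1 (125 ± 23.8 FPKM), Txnrd1 (95.6 ± 23.1), Nfe2l2 (46.5 ± 1.13), Srxn1 (29.1 ± 2.03), Keap1 (25.7 ± 1.28), G6pdx (24.4 ± 0.698), Gclm (24.2 ± 4.44), Gsr (17.1 ± 0.736), Nqo1 (9.98 ± 2.92) and Gclc (7.91 ± 1.88). In WT cells the ranges of Hmox1 and Txnrd1 overlapped, as did those of Srxn1, Keap1, G6pdx and Gclm with their neighbours and those of Nqo1 and Gclc. Gclm thus had rank 4 in KO and 7 in WT cells, and Nqo1 rank 10 in KO and 9 in WT cells.

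The loci most like Nqo1 across the 6 libraries, by Pearson r of log2 CPM among 9534 named loci of at least 5 CPM, were Plekhb2 (r = 0.998), Anxa6 (r = 0.996) and Epb41l2 (r = 0.994). All 3 had lower values in every KO library and a high WT replicate 3: Anxa6 read 331, 373 and 369 CPM in KO libraries and 545, 544 and 642 CPM in WT libraries. The 6 points fall in 2 genotypes and share the replicate structure described above, so the r values are a description only.

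The wider machinery around NRF2 was read from lists of partners and enzymes. Of 15 listed NRF2 partners, repressors and turnover factors, 14 were tested, 1 rose and 1 fell (14.3% called, against 16.1% of all loci), with a median log2 fold change of -0.15 (0.007 over all loci). Nfe2l3, the NRF2 relative NRF3, rose to 0.658 ± 0.0445 CPM in KO cells, against 0.171 ± 0.0496 CPM in WT cells (SD, n = 3 each; log2 fold change 1.93 ± 0.32 SE; edgeR adjusted p = 0.00749), which is a low level in both: the WT libraries held 6.63 to 12.6 estimated fragments of it, so counting error is large there. Bach1, the heme-binding repressor that competes with NRF2 for its sites, read 98.4, 94.7 and 98.3 CPM in KO libraries and 134, 143 and 112 CPM in WT libraries (-0.42 ± 0.11; edgeR adjusted p = 0.0355). The Bach1 call was lost without KO replicate 1 (edgeR adjusted p = 0.113), KO replicate 2 (0.101), WT replicate 1 (0.125) or WT replicate 2 (0.123), leaving 1 call in the list each time, and with scaling by library size only (0.0751). Without replicate 3 of both genotypes 6 of the 14 passed, where 41.3% of all loci did.

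Of 31 listed genes of glutathione synthesis and use, 28 were tested, 4 rose and 4 fell (28.6% called, against 16.1% of all loci; median log2 fold change -0.16). The cystine carrier had both subunits higher in KO cells. Its light chain Slc7a11 read 19.0, 15.9 and 22.9 CPM in KO libraries and 6.91, 6.11 and 8.29 CPM in WT libraries (1.44 ± 0.18 SE on the log2 scale; edgeR adjusted p = 0.00239). Its heavy chain Slc3a2 averaged 263 ± 9.03 CPM in KO and 161 ± 7.11 CPM in WT cells (SD, n = 3 each; 0.71 ± 0.09; adjusted p = 0.00222). Gss, glutathione synthetase, which completes the tripeptide, fell to 19.6 ± 2.04 CPM in KO cells, against 32.7 ± 1.98 CPM in WT cells (SD, n = 3 each; -0.74 ± 0.11; edgeR adjusted p = 0.00567). Chac1, which breaks glutathione down, averaged 45.3 ± 5.97 CPM in KO and 21.8 ± 5.23 CPM in WT cells (SD, n = 3 each; 1.06 ± 0.18; edgeR adjusted p = 0.00833). The remaining calls, named after their values were seen, were glutathione S-transferases. Gstm5 rose (edgeR adjusted p = 0.0244), and Gstm2 (0.0131), Gstt1 (0.0326) and Gstt2 (0.0461) fell. The list had 4 calls without KO replicate 1, 5 without KO replicate 2, 5 without WT replicate 1 and 4 without WT replicate 2. In those fits 6.79% to 8.5% of all loci passed. Without KO replicate 1, and without WT replicate 2, only Slc7a11, Slc3a2, Chac1 and Gss passed, so every S-transferase call was lost. Without WT replicate 1 the only lower call was Gss, so those of Gstm2, Gstt1 and Gstt2 were lost. Without replicate 3 of both genotypes 15 of the 28 passed, where 41.3% of all loci did.

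All 20 listed genes of thioredoxins, peroxiredoxins and superoxide removal were tested, 3 rose and 1 fell (20% called, against 16.1% of all loci, with a median of 0.04). Of the 3 superoxide dismutases, the mitochondrial and the extracellular enzyme rose in KO cells; cytosolic Sod1, named after its value was seen, read 21.4, 24.5 and 24.2 CPM in KO libraries and 35.7, 26.5 and 33.8 CPM in WT libraries and missed the threshold (-0.45 ± 0.13 SE; edgeR adjusted p = 0.0587). Mitochondrial Sod2 averaged 202 ± 27.5 CPM in KO and 74.3 ± 12.4 CPM in WT cells (SD, n = 3 each; 1.45 ± 0.16 SE; edgeR adjusted p = 0.00129). Extracellular Sod3 read 16.4, 21.2 and 50.1 CPM in KO libraries and 3.26, 3.15 and 2.60 CPM in WT libraries (3.28 ± 0.42; edgeR adjusted p = 0.00258), with KO replicate 3 far above the other KO libraries. Without KO replicate 3 the Sod3 value was 2.64 ± 0.17 (edgeR adjusted p = 0.000203), and 7 of the 20 listed genes passed, where 19.1% of all loci did. Without replicate 3 of both genotypes Sod3 was at 2.55 ± 0.14. Txnip, an inhibitor of thioredoxin, averaged 311 ± 28.5 CPM in KO and 183 ± 19.4 CPM in WT cells (SD, n = 3 each; 0.76 ± 0.12; edgeR adjusted p = 0.00541). Sesn1, a stress-induced sestrin, read 22.5, 23.6 and 23.9 CPM in KO libraries and 42.6, 40.2 and 26.2 CPM in WT libraries (-0.64 ± 0.18; edgeR adjusted p = 0.0473). Its call was lost without KO replicate 1, 2 or 3 or WT replicate 1 or 2 (edgeR adjusted p of 0.0715 to 0.159). The 6 listed peroxiredoxins, the family that holds the substrates of sulfiredoxin and described after their values were seen, lay between 0.01 (Prdx1) and 0.36 (Prdx2) on the log2 scale, with edgeR adjusted p of 0.0742 to 0.962.

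Of 15 genes listed under NADPH supply, 14 were tested and 1 was called, higher in KO cells (7.14% called, against 16.1% of all loci, with a median of -0.16). Of the 14, 10 had a log2 fold change below 0, and NADPH itself was not measured. Mthfd2, of mitochondrial folate metabolism, averaged 152 ± 3.17 CPM in KO and 78.4 ± 13.0 CPM in WT cells (SD, n = 3 each; 0.95 ± 0.12 SE; edgeR adjusted p = 0.00283). The list had 2 calls without KO replicate 3 (19.1% of all loci) and 2 without WT replicate 3 (18.5%). Of 21 listed phase II, heme and iron genes, 18 were tested, 1 rose and 4 fell (27.8% called, against 16.1% of all loci, with a median of -0.18). Blvrb, biliverdin reductase B, read 9.26, 11.0 and 10.6 CPM in KO libraries and 25.5, 27.6 and 28.8 CPM in WT libraries (-1.41 ± 0.12, edgeR adjusted p = 0.000491). Blvra, biliverdin reductase A, named after its value was seen, was not called (-0.24 ± 0.16, edgeR adjusted p = 0.376). The aldo-keto reductase gene Akr1c14 averaged 3.04 ± 0.0650 CPM in KO and 23.4 ± 8.42 CPM in WT cells (SD, n = 3 each; -2.94 ± 0.28; adjusted p = 0.000815). The epoxide hydrolase gene Ephx1 averaged 191 ± 10.5 CPM in KO and 354 ± 7.67 CPM in WT cells (SD, n = 3 each; -0.89 ± 0.09; adjusted p = 0.000984). Slc48a1, a heme transporter, averaged 198 ± 18.5 CPM in KO and 130 ± 10.9 CPM in WT cells (SD, n = 3 each; 0.61 ± 0.11; adjusted p = 0.0104), and did not pass without KO replicate 1 (0.053). The carbonyl reductase gene Cbr1, named after its value was seen, also fell (-0.35 ± 0.10, edgeR adjusted p = 0.0488). The Cbr1 call was lost without KO replicate 1, KO replicate 2, WT replicate 1 or WT replicate 2. Without KO replicate 1 the list had 3 calls, where 6.79% of all loci passed.

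**Figure D4:**
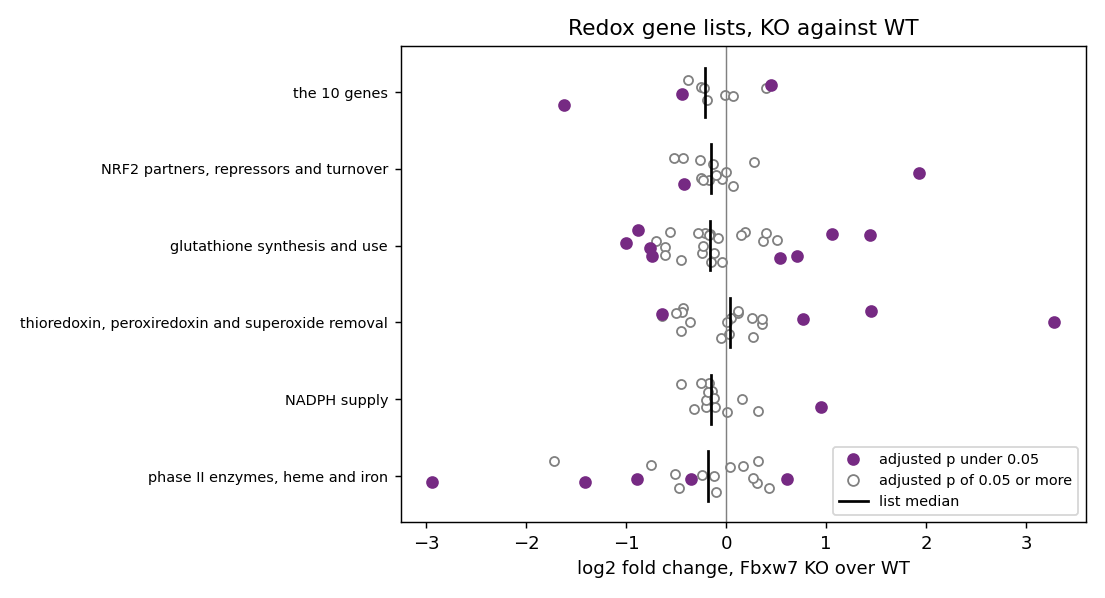
Log2 fold change, Fbxw7 KO over WT, of each tested gene of the 10 and of the 5 wider lists (points spread vertically for legibility); filled points passed an adjusted p of 0.05 and the black line is the list median. Medians lie between -0.21 and 0.04, and calls stand on both sides of 0 in all groups except NADPH supply, whose 1 call is Mthfd2.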

How the data were processed

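RNA of 3 Fbxw7 KO and 3 WT mouse embryonic fibroblast libraries, made with the Illumina TruSeq protocol per the labels' protocols, was analysed. Per the submitters' processing notes, TopHat2 2.1.1, SAMtools 1.5, deepTools and Cufflinks 2.2.1 were used on mm10; neither the strand setting nor the annotation is stated there. Estimated counts per locus and FPKM were deposited, both in Cufflinks layout, per the file headers. Of the deposited count values up to 1000, 88.8% to 89.6% were whole multiples of 1 step per library (tolerance 0.05 step), so each library had been scaled by 1 factor; before it the libraries held 51154147 to 70625678 fragments. Estimation was skipped in 9 named loci, which were left out with the 1317 unnamed loci (at most 3.13e-05% of a library); no member was marked as failed. The design assumed count data that could be rounded: estimated counts were rounded, and edgeR 4.0.16 under R 4.3.3 gave the test (filterByExpr, TMM, robust quasi-likelihood F test, two-sided, genotype as the only term, Benjamini-Hochberg over 16787 loci). CPM uses TMM factors; the SE is the log2 fold change over the square root of F. Each member held at least 242 estimated fragments in every library; without molecular identifiers PCR copies count as separate fragments. List genes in a locus with another coding gene were left out. The 10 members and the lists were chosen with earlier results of these data known. From each of the 5 wider lists up to 4 called genes with the smallest adjusted p are named; any other gene named is marked as picked with its values known. Alternatives were DESeq2 size factors, library size only, other count filters, the DESeq2 1.42.0 Wald test, a block for replicate number, leaving out each library, and limma 3.58.1 on log2(FPKM + 1), with and without a minimum mean of 1 FPKM, and on log2(FPKM + 0.1) with it. Chosen with the data in view were division of counts by the step, leaving out replicate 3 of both genotypes, and summing replicates 1 and 2. The test was tried on simulated data. Figures were made with Python 3.11.15 and matplotlib 3.10.9.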

Additional observations from a re-analysis of the deposited data

How the results depend on the processing

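Nqo1 kept its direction and its call under all 18 alternatives. Leaving out 1 library gave 1169 to 3282 genes called in all, 1 to 4 of the 10 members, 1 to 2 NRF2 partners, 4 to 9 glutathione, 3 to 7 thioredoxin and superoxide, 1 to 2 NADPH and 3 to 6 phase II genes, with log2 fold changes of 0.39 to 0.55 for Gclm, -0.51 to -0.38 for Srxn1, -0.087 to 0.042 for Keap1 and -0.042 to 0.26 for Gclc; Keap1 turned to 0.042 without KO replicate 3 and 0.021 without WT replicate 2, and Gclc to -0.0095 without WT replicate 1 and -0.042 without WT replicate 2. With the replicate block, 1 member and 1 NRF2 partner passed, and Gclm (0.45) and Srxn1 (-0.44) did not. Deviations of same-numbered libraries correlated at 0.015, 0.092 and 0.074, and those of differently numbered libraries at -0.117 to 0.071. These values cannot tell whether same-numbered libraries were paired or shared a batch. The CPM filter left 1 NRF2 partner, and DESeq2 called 7 thioredoxin and superoxide genes and 3639 of 16787 loci in all. On log2(FPKM + 1) limma called 1562 genes, on log2(FPKM + 0.1) 1615 and without the filter 1182, with 1 NRF2 partner each time; Gclm did not pass, at 0.47, 0.48 and 0.47, and without the filter 1 member, 5 glutathione and 3 phase II genes passed and Srxn1 (-0.40) did not. Without replicate 3 of both genotypes, 6993 genes were called, 7 members, 6 NRF2 partners, 15 glutathione, 15 thioredoxin and superoxide, 4 NADPH and 10 phase II genes, Keap1 was at 0.015 and Txnrd1 at 0.028. With replicates 1 and 2 summed, 484 genes, 1 member, 0 NRF2 partners, 1 glutathione, 2 thioredoxin and superoxide, 0 NADPH and 3 phase II genes passed in edgeR (unadjusted p under 0.05 in 2 NRF2 partners and 1 NADPH gene, with no other tool run); Gclm (0.36) and Srxn1 (-0.49) did not, and Gclc was at -0.044. Fewer libraries entered those 2 fits than the main fit, which called 2705 genes. Why the number called rose in the first and fell in the second was not tested. Library size only put Keap1 at 0.082, moved the median of all loci to 0.105 (0.007 with TMM) and made 65.7% of calls higher (49.8% with TMM); limma made 37.6% higher on filtered FPKM and 44.6% without the filter. On log2(FPKM + 1), where the pseudocount shrinks low values, Slc7a11 was at 0.76, Sod3 at 2.11, Akr1c14 at -2.21 and, without the filter, Nfe2l3 at 0.25, all called.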
